A study of Arabidopsis thaliana with 12 samples.

Results

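The 10 nuclear genes described here encode the proteins that carry electrons through mitochondrial cytochrome c and those that put haem on it. They were chosen by gene identifier, for their known function, but with earlier results of these data known. They are CCMA (AT1G63270), CCME (AT3G51790), CCMH (AT1G15220), CYTC-1 (AT1G22840), CYTC-2 (AT4G10040), both genes for cytochrome c1 (AT3G27240 and AT5G40810), both genes for the Rieske iron-sulfur protein (AT5G13430 and AT5G13440) and GLDH (AT3G47930). They are 10 of the 32743 genes counted in the tables, of which 32548 are nuclear. RNA was sequenced from Arabidopsis thaliana leaves at 35 days, in the vegetative state, from untreated plants grown in long days. The plants were wild type (WT, ecotype Col-0) or otp90, a homozygous T-DNA line (SM_3_29659) with its insertion in AT1G25360, so the mutant is represented by 1 insertion line. RNA came from 2 preparations that the labels name Mito and Total, and the sources used here do not say how the Mito preparation was made. There were 3 libraries of each genotype in each preparation, 12 in all. Nothing in the labels says that the 3 came from separate plants, so the p-values measure the spread between libraries.

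In plant mitochondria, apocytochromes c and c1 become functional only when haem is attached covalently to a pair of cysteines, in the intermembrane space. Plants use a bacterial type of machinery for this, called cytochrome c maturation, whose parts are coded in both genomes: CCMA, CCME and CCMH in the nucleus, and ccmB, ccmC, ccmFC, ccmFN1 and ccmFN2 in the mitochondrion. CCMA is the ATPase subunit of a transporter-like complex with CcmB, CCME is the chaperone that receives haem and hands it on, and CCMH is a thiol protein that keeps the apocytochrome cysteines ready. Mature cytochrome c1 sits in complex III beside the Rieske protein and passes electrons to soluble cytochrome c, which carries them to complex IV. GLDH, L-galactono-1,4-lactone dehydrogenase, makes ascorbate in the inner membrane, uses cytochrome c as its electron acceptor and takes part in complex I assembly. OTP90 is a pentatricopeptide repeat protein of the DYW class needed for C-to-U editing of mitochondrial transcripts that include ccmB, ccmC and ccmFC. The genotype comparison therefore asks whether the transcripts of the nuclear partners differ where editing of the mitochondrial ccm transcripts is impaired.

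The haem attachment site is shown because it is what the maturation proteins act on, and because it shows how alike the paired genes are. It lies inside 1 exon in each of the 4 cytochrome genes, and the coding sequences of the other 6 genes hold no such motif in frame. The stretches below are coding-strand DNA, 5′ to 3′, from RefSeq's TAIR10.1 assembly, on which the 10 genes have the same start and end as in the count tables. Capitals mark the codons of the cysteine pair and of the histidine that follows it, and the lower-case letters between them are the spacer codons.
CYTC-1: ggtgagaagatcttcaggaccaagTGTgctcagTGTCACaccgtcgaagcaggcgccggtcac
CYTC-2: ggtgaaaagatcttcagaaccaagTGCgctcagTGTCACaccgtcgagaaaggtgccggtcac
AT3G27240: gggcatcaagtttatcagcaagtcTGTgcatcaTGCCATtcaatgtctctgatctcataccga
AT5G40810: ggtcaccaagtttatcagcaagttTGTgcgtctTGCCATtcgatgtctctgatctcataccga
The stretches are at chr1:8079426-8079488 (plus strand), chr4:6277125-6277187 (plus), chr3:10057288-10057350 (minus) and chr5:16340919-16340981 (plus), in that order. Over their coding sequences the CYTC pair was 83.2% identical, the cytochrome c1 pair 87.9% and the Rieske pair 94.7%. The Rieske genes are tandem neighbours on chromosome 5, with 402 bases between them.

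In the count tables (TAIR10), the maturation genes are CCMA at chr1:23469554-23471510 (minus strand), CCME at chr3:19209515-19210849 (minus) and CCMH at chr1:5240029-5241541 (minus). The cytochrome c genes are CYTC-1 at chr1:8079287-8080574 (plus) and CYTC-2 at chr4:6276948-6278622 (plus), and the cytochrome c1 genes AT3G27240 at chr3:10055730-10058773 (minus) and AT5G40810 at chr5:16339863-16342927 (plus). The Rieske genes are AT5G13430 at chr5:4305106-4307570 and AT5G13440 at chr5:4307973-4310273 (both minus), and GLDH is at chr3:17684322-17687661 (plus). Reads were counted over exons, from 734 bases in CYTC-1 to 2494 bases in GLDH.

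These identities bear on the counts, because the reads were 75 bases long and reads that fitted several places equally well were counted at each of them. No 75-base stretch of the exons of CYTC-1, CYTC-2, AT3G27240 or AT5G40810 occurs a second time in the genome, and the longest exact run shared within a pair was 20 bases for CYTC and 35 bases for cytochrome c1. The Rieske pair differed in this: its longest shared run was 155 bases, and 141 stretches of 75 bases, 12.3% of those of AT5G13430 and 10.2% of those of AT5G13440, are found in both genes. The values of the Rieske genes are therefore not fully separate from each other. CCMA, CCME, CCMH and GLDH had no second copy of any 75-base exonic stretch.

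The 6 Mito libraries held 24660745 to 32418348 counts and the 6 Total libraries 49434596 to 60464017. Counts of mitochondrial-genome genes took 2.89 to 5.16% of a Mito library and 0.959 to 1.19% of a Total library. Plastid-genome genes took 42.7 to 48.9% of a Mito library and 56.7 to 62.2% of a Total library. Nuclear genes took 46.9 to 52.7% of a Mito library and 36.9 to 42.1% of a Total library. The 10 genes together took 0.0189 to 0.0209% of a Mito library and 0.0158 to 0.0243% of a Total library. Every gene had at least 43 counts in every library, while 3 counts, the upper limit that a count of 0 allows, corresponded to 0.0582 to 0.108 CPM (the count scaled to a common library size, here by trimmed means, TMM). OTP90 itself had 6 to 20 counts per library, with overlapping groups, which gives no check of the genotype labels. The leaf markers summed to 11034 to 12386 CPM in Mito and 15851 to 22350 CPM in Total. Of 7 markers of other organs, PYK10, a root beta-glucosidase gene, stood apart at 24.2 to 40.9 CPM in the 6 Mito libraries, against 0.0206 to 0.86 CPM in the 6 Total libraries. The other 6 summed to 0.348 to 0.939 CPM in Mito and 0.479 to 0.867 CPM in Total, and EXPA7, a root hair gene, had 0 counts in all 12. These sums join different directions. AP3, a floral gene, had 5 to 7 counts in Mito WT, 0 to 7 in Mito otp90 and 0 in Total. CASP1, a root gene, had 1 to 4 counts in Mito and 0 to 1 in Total. AG, a floral gene too, had 6 to 26 counts in Mito and 22 to 37 in Total, and CRA1 had 0 and 0 to 2. OLEO1 had at most 1 count in a library.

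The 10 genes spanned a wide range of levels. On the scale of CPM per kilobase of exon, the Mito WT means were 24.4 ± 0.986 (SD, n = 3) for AT5G13440, 22.5 ± 1.78 for AT5G13430 and 22.3 ± 1.07 for CYTC-1. These highest levels overlapped between neighbours. The cytochrome c1 genes followed at 18.7 ± 0.503 for AT3G27240 and 16.0 ± 0.0655 for AT5G40810, and then CYTC-2 at 7.45 ± 0.0629, each apart from its neighbours. GLDH stood at 3.58 ± 0.158. The maturation genes were lowest, with CCME at 2.59 ± 0.412, CCMA at 1.46 ± 0.326 and CCMH at 1.36 ± 0.0664, and the libraries of CCMA and CCMH overlapped. In Total WT, CYTC-1 had the highest mean per kilobase, 36.4 ± 8.35, but its libraries overlapped those of AT5G13440 at 32.9 ± 1.76. In otp90 the highest means were those of AT5G13440, 24.7 ± 1.02 in Mito and 31.7 ± 2.55 in Total, with CYTC-1 at 22.8 ± 2.07 and 28.9 ± 2.84. The order from CYTC-2 down to CCME was the same in the 4 groups, and CCMA and CCMH held the lowest places in each. This scale takes no account of reads across exon junctions, which were aligned without introns. Whole 75-base exonic stretches numbered 948 in AT3G27240 (1530 exon bases), 512 in CYTC-1 (734) and 1386 in AT5G13440 (1534). The order between genes, above all among the highest, may therefore differ from the one given.

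**Figure D1:**
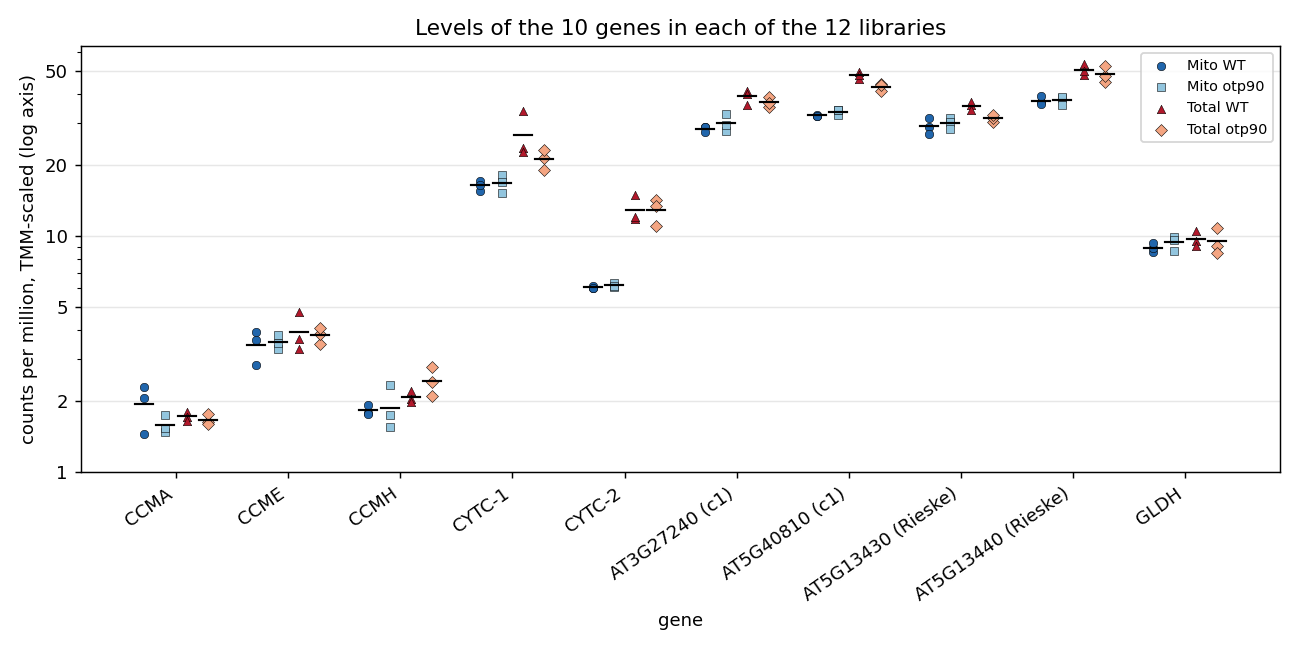
Level of each of the 10 genes in each of the 12 libraries, in TMM-scaled CPM on a log axis (not per kilobase). Each point is 1 library, colour and shape give the group, and the short bars are group means. WT and otp90 libraries lie at like levels within a preparation, while CYTC-2 lies near 6 in Mito and between 11.0 and 14.9 in Total.

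In the Mito preparation, no member passed the test for a difference between otp90 and WT. Across all genes, the quasi-likelihood test of edgeR (p-values adjusted by Benjamini and Hochberg's method) called 10 of the 16570 genes tested, 0.0604%, with 0.0422% higher and 0.0181% lower, so a count of 0 among 10 members does not set them apart. No member had an unadjusted p under 0.05 in edgeR, and DESeq2 called none either. The median log2 fold change of the members was 0.025 and that of all genes tested was -0.0044.

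CCMA, the ATPase gene, had 2.28, 2.06 and 1.45 CPM in the WT libraries and 1.74, 1.47 and 1.54 CPM in the otp90 libraries of Mito. The ranges overlapped, and the third WT library lay lowest of the 6. Its log2 fold change was -0.30 ± 0.19 (SE), the largest in size among the members, with a 95% interval of -0.73 to 0.13 and an adjusted p of 0.789 in edgeR. CCME, the haem chaperone gene, had 3.62, 3.91 and 2.85 CPM in WT and 3.33, 3.79 and 3.51 CPM in otp90. CCMH, the thiol protein gene, had 1.79, 1.93 and 1.77 CPM in WT and 1.74, 1.56 and 2.33 CPM in otp90. Both overlapped between genotypes, with log2 fold changes of 0.024 (95% interval -0.28 to 0.33) and 0.013 (-0.38 to 0.40). At 43 to 150 counts per library these are the least precise values of the set, and changes within these intervals were not detectable at this depth.

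The electron carriers were measured more closely. CYTC-1 had 15.6, 17.1 and 16.5 CPM in Mito WT and 18.2, 15.2 and 17.0 CPM in Mito otp90, and CYTC-2 had 6.04, 6.13 and 6.04 CPM against 6.05, 6.31 and 6.16 CPM. The log2 fold changes were 0.026 (95% interval -0.16 to 0.22) and 0.018 (-0.17 to 0.20). AT5G40810, for cytochrome c1, had 32.4, 32.6 and 32.3 CPM in WT and 32.7, 34.1 and 34.0 CPM in otp90. It was the only member whose libraries did not overlap between the genotypes in Mito, where 7.56% of all genes tested were likewise higher, 5.47% lower and 13% in either direction. Its log2 fold change was 0.044 (-0.09 to 0.18), with an adjusted p of 0.918 in edgeR. AT3G27240, its partner gene, had 29.0, 29.0 and 27.7 CPM in WT and 27.9, 32.9 and 29.6 CPM in otp90, a log2 fold change of 0.071 (-0.09 to 0.24). AT5G13430, a Rieske gene, had 29.1, 31.6 and 26.9 CPM in WT and 31.7, 30.3 and 28.5 CPM in otp90, a log2 fold change of 0.040 (-0.14 to 0.22). For AT5G13440, its tandem neighbour, the values were 37.0, 39.2 and 36.3 CPM against 38.5, 38.9 and 36.0 CPM, with a log2 fold change of 0.0051 (-0.14 to 0.15). The genotypes overlapped in these 3 genes. GLDH had 8.56, 8.89 and 9.34 CPM in WT and 9.90, 9.59 and 8.67 CPM in otp90, a log2 fold change of 0.068 (-0.12 to 0.26), also with overlap. The sign of 9 of the 10 values was positive, but with scaling by library size alone 0 of the 10 were positive, so no direction can be read from them.

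In the Total preparation, no member passed the test either. Here edgeR called 0 of 15373 genes (0%), with 458 genes at an unadjusted p under 0.05 and 18 genes called by DESeq2. No member was at an unadjusted p under 0.05 or called by DESeq2. The members' median log2 fold change was -0.057, beside -0.0027 for all genes tested, and their adjusted p in edgeR was 0.9996 throughout. For the maturation genes the values were -0.054 for CCMA (95% interval -0.40 to 0.29), -0.051 for CCME (-0.45 to 0.35) and 0.22 for CCMH (-0.15 to 0.58). CCMA had 1.80, 1.71 and 1.64 CPM in Total WT and 1.63, 1.59 and 1.76 CPM in Total otp90, and CCME had 3.65, 4.78 and 3.33 CPM against 3.48, 3.82 and 4.08 CPM, all within overlapping ranges. CCMH had 2.21, 2.04 and 1.97 CPM in Total WT and 2.40, 2.10 and 2.77 CPM in Total otp90. The ranges of CCMH overlapped too.

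CYTC-1 gave the value largest in size of the Total comparison, and it turned on 1 library. Its levels were 23.7, 33.8 and 22.7 CPM in Total WT and 19.1, 21.3 and 23.2 CPM in Total otp90, so the second WT library stood well above the other 5. The log2 fold change was -0.34 ± 0.18 (SE; 95% interval -0.76 to 0.09), and -0.13 without that library. CYTC-2 had 11.8, 14.9 and 12.0 CPM in Total WT and 11.0, 14.2 and 13.5 CPM in Total otp90, with a log2 fold change of -0.0019 (-0.36 to 0.36). AT5G40810 had 46.3, 49.6 and 47.9 CPM in WT and 41.0, 44.0 and 43.7 CPM in otp90, and AT5G13430, a Rieske gene, had 35.9, 36.9 and 34.1 CPM against 30.4, 31.8 and 32.6 CPM. In these 2 genes every otp90 library was below every WT library, as in 4.33% of all genes tested, while 4.74% were higher without overlap and 9.07% lay apart in either direction. Their log2 fold changes were -0.16 (-0.40 to 0.07) and -0.18 (-0.40 to 0.05), which did not pass the test. AT3G27240 had 35.9, 41.2 and 40.2 CPM in WT and 35.1, 38.9 and 36.8 CPM in otp90, a log2 fold change of -0.086 (-0.35 to 0.17). AT5G13440 had 48.1, 53.4 and 49.97 CPM in WT and 45.1, 47.8 and 52.8 CPM in otp90, a log2 fold change of -0.059 (-0.32 to 0.20). GLDH had 9.54, 9.03 and 10.5 CPM in WT and 9.10, 10.9 and 8.51 CPM in otp90, a log2 fold change of -0.031 (-0.36 to 0.30), and in these 3 genes the genotypes overlapped.

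**Figure D2:**
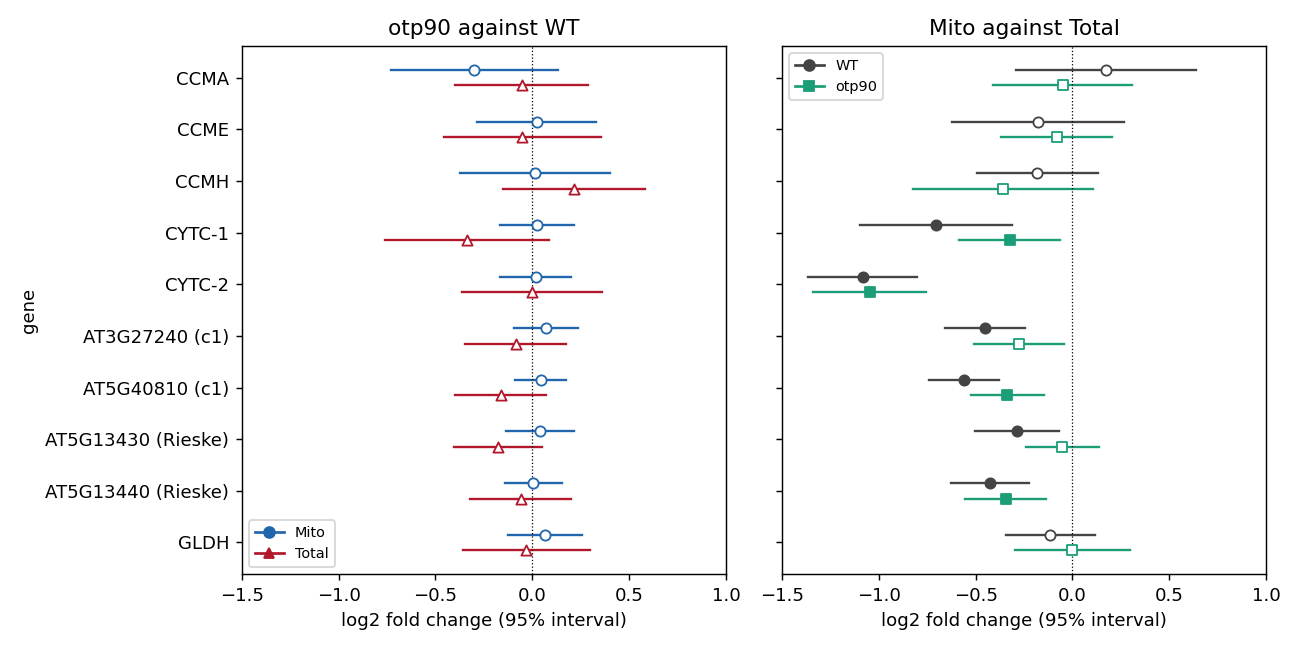
Log2 fold change of each gene with its 95% interval, otp90 against WT on the left (circles Mito, triangles Total) and Mito against Total on the right (circles WT, squares otp90). Filled symbols passed the test at an adjusted p of 0.05. Every interval on the left includes 0, and on the right CYTC-2 lies near -1 in both genotypes.

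Whether the genotype effect differed between the preparations was tested directly, as an interaction over the 12 libraries. EdgeR called 0 of 16825 genes (0%), with 854 at an unadjusted p under 0.05 and 6 called by DESeq2, and no member passed. AT5G40810 had the smallest unadjusted p among the members, 0.0454. Its difference was 0.21 (95% interval 0.0052 to 0.42; adjusted p = 0.930 in edgeR). CYTC-1 had the difference largest in size, 0.37 (-0.087 to 0.82), and 8 of the 10 members were positive.

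On the mitochondrial side of the same machinery, all 5 ccm genes and cob, the gene for cytochrome b, had positive log2 fold changes in Mito, with a median of 0.74, and an unadjusted p under 0.05. Of these 6 genes 1 passed after adjustment: ccmFN1, a subunit of the haem lyase, had 49.8, 46.3 and 61.8 CPM in WT and 108, 113 and 86.5 CPM in otp90, and was higher by 0.96 ± 0.13 (SE; adjusted p = 0.0394 in edgeR). With the replicate number as a block, an alternative fit, 5 of the 6 passed and all genes called went from 10 to 221, while the members called stayed at 0. The call of ccmFN1 was lost with library size alone, with 12 libraries in 1 fit, and without any 1 of the 3 Mito otp90 libraries or of the first and second Mito WT libraries. The list's median lay between 0.62 and 0.84 in those fits. The 2 most abundant of the list, cob and ccmFC, gave 0.44 ± 0.12 and 0.65 ± 0.11. In Total none of the 6 passed (adjusted p = 0.9996 in edgeR), but all 6 were positive and 5 were at an unadjusted p under 0.05. Of all genes tested, 458 of 15373 were under that level in Total and 1153 of 16570 in Mito. The median of the 6 in Total was 0.36, cob gave 0.25 ± 0.10 and ccmFC 0.36 ± 0.11. The share of all mitochondrial-genome counts was also higher on average in otp90 in Mito, 4.42, 5.16 and 5.08% against 3.22, 2.89 and 4.59% in WT, with overlap, and its part in the ccm and cob values was not tested. Reads of edited and unedited transcripts are counted alike, so these counts say nothing of editing.

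Other nuclear genes of the pathway, and ccsA of the plastid genome, did not pass the genotype test either. None of the tested genes for the other complex III subunits (10 tested of 11), complex IV subunits (10 of 11), complex IV assembly (9 of 11 in Mito and 10 of 11 in Total), haem synthesis (14 of 14), ascorbate synthesis before GLDH (8 of 8) or plastid c-type cytochrome maturation (4 of 4) passed in either preparation. In the order just given, the list medians were -0.029, -0.045, 0.051, 0.12, -0.010 and 0.016 in Mito and -0.15, -0.096, -0.029, -0.19, 0.015 and 0.017 in Total. In Total the values were negative for 10 of 10 complex III genes and 11 of 14 haem synthesis genes, 1 gene of each list being at an unadjusted p under 0.05. In Mito they were negative for 8 of 10 complex III genes, with 1 gene under that level. Haem synthesis went the other way in Mito, with 13 of 14 genes positive and 2 under that level. Of all genes tested, 458 of 15373 were under it in Total and 1153 of 16570 in Mito. In the interaction, haem synthesis had a median of 0.36 with 4 of 14 genes at an unadjusted p under 0.05 and none called (lowest adjusted p = 0.930 in edgeR). Of complex III, the 2 most abundant genes were MPPbeta and MPPalpha-1, subunits that also process imported precursors, with log2 fold changes of -0.00063 and 0.038 in Mito and -0.092 and -0.099 in Total. Of complex IV, COX5c-3 and COX6a gave -0.025 and -0.13 in Mito and 0.023 and -0.12 in Total. COX10 and COX11, of complex IV assembly, which act in making haem A and in copper delivery, gave 0.14 and -0.18 in Mito and -0.12 and 0.12 in Total. HEMA1, the first committed enzyme of tetrapyrrole synthesis, gave 0.13 in Mito and 0.098 in Total. HEMC was the next most abundant haem gene in Mito at 0.16, and HEME2 in Total at -0.27. VTC2 and GME, of ascorbate synthesis, gave 0.028 and 0.085 in Mito and 0.24 and -0.027 in Total. Of the plastid maturation genes, ccsA and CCS1 gave -0.18 and 0.021 in Mito and -0.14 and 0.028 in Total.

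**Figure D3:**
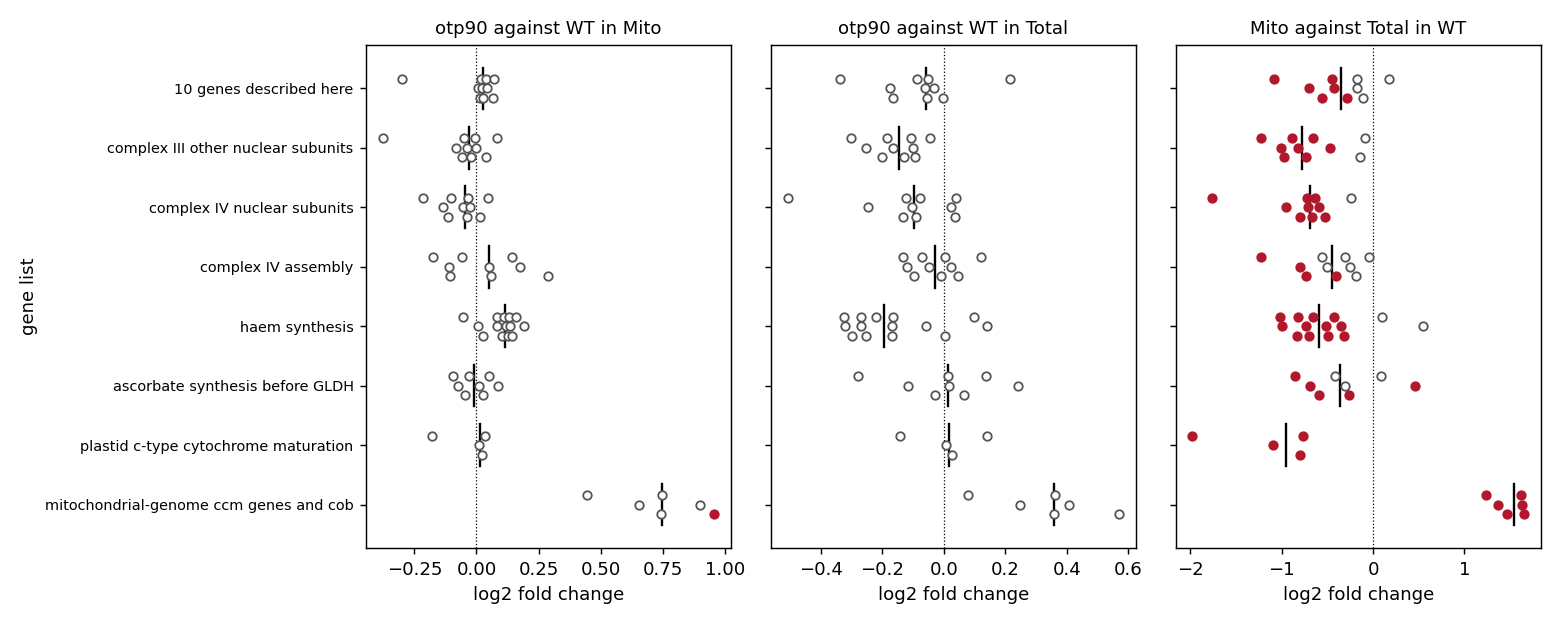
Log2 fold change of each tested gene in 8 lists, for otp90 against WT in Mito (left), otp90 against WT in Total (middle) and Mito against Total in WT (right). The 3 panels have different horizontal scales. Each point is 1 gene, filled points passed the test and the vertical bars are list medians. The ccm genes and cob have medians of 0.74, 0.36 and 1.54, and the 10 members 0.025, -0.057 and -0.35.

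The comparison of the preparations asks how the cytosolic transcripts of these genes stand in Mito. Its libraries had higher shares of mitochondrial and of nuclear counts than Total, and a lower share of plastid counts. Relative to the bulk of genes, 6 of the 10 members were lower in Mito than in Total in WT and 4 of 10 in otp90, and none was higher. With scaling by library size alone the median of all genes moved to 0.48 in WT and 0.47 in otp90. Under that scaling 2 members were called higher and 1 lower in WT, and 3 higher and 1 lower in otp90. Of all genes, 7798 of 16436 were then higher and 979 lower in WT, and 8795 of 16337 higher and 1209 lower in otp90. Among all genes tested with TMM scaling, 20.9% were lower and 22.8% higher in WT, 43.7% in all, and 22.3% were lower and 24.8% higher in otp90, 47.1% in all. The groups did not overlap for 57.1% of genes in WT (27.7% lower, 29.4% higher) and for 58.6% in otp90 (28.8% lower, 29.8% higher). Members lay below Total without overlap in 7 of 10 cases in WT and 5 of 10 in otp90. Leaf markers were lower in Mito too (4 of 5 in each genotype), and PYK10 had 849 to 1250 counts in Mito WT and 1140 to 1419 in Mito otp90, beside 1 to 2 in Total WT and 3 to 40 in Total otp90. In bulk RNA, fewer cells of a type cannot be told apart from less RNA per cell, and the part of tissue content in these differences was not tested.

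CYTC-2 was the member with the largest difference, and the only member called lower in all 14 fits run in each genotype, library size alone included. Its Mito libraries held 6.04 to 6.31 CPM and its Total libraries 11.0 to 14.9 CPM, with no overlap. The log2 fold change was -1.08 ± 0.12 (SE; adjusted p = 0.000927 in edgeR) in WT and -1.05 ± 0.12 (adjusted p = 0.000639) in otp90. With library size alone it fell by 0.62 in WT and by 0.59 in otp90. CYTC-1 was lower by less, -0.70 ± 0.16 in WT (adjusted p = 0.0138 in edgeR) and -0.32 ± 0.11 in otp90 (adjusted p = 0.0465). Its call in WT was lost without any 1 of the 3 Mito WT libraries (adjusted p = 0.0512 to 0.067). Its call in otp90 was lost in 4 of the 6 fits that left out a library, each Mito otp90 library and the second Total otp90 library, with the replicate block (adjusted p = 0.0797) and with all 12 libraries in 1 fit (adjusted p = 0.0759). With library size alone it was -0.24 in WT and 0.13 in otp90, neither called.

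The cytochrome c1 and Rieske genes were lower by smaller amounts relative to the bulk of genes. AT5G40810 gave -0.56 ± 0.08 in WT (adjusted p = 0.00179 in edgeR) and -0.34 ± 0.08 in otp90 (0.0118). AT3G27240 gave -0.45 ± 0.09 in WT (adjusted p = 0.00685) and -0.28 ± 0.10 in otp90, where it missed the threshold (adjusted p = 0.0532) but was called in 6 of the 14 fits run, among them RLE size factors (0.0424), nuclear genes only (0.0479), DESeq2 (0.0377) and all 12 libraries in 1 fit (0.0162). AT5G13440 gave -0.43 ± 0.08 (adjusted p = 0.00739) and -0.34 ± 0.09 (0.0171). AT5G13430 gave -0.28 ± 0.09 in WT, close to the threshold (adjusted p = 0.0422 in edgeR), and -0.051 ± 0.081 in otp90 (0.633). Its call in WT was lost in 5 of the 6 fits that left out a library and, with the replicate block, at an adjusted p of 0.0568. The call of AT5G13440 in WT was lost without the third Mito WT library (adjusted p = 0.0513). In otp90, CYTC-2 was the only member called without any 1 of the 3 Mito otp90 libraries. With library size alone none of these 4 genes was called lower, and AT5G13430 was called higher in otp90 by 0.40.

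The maturation genes and GLDH did not pass the test in either genotype. The Mito against Total values were 0.17 for CCMA (95% interval -0.29 to 0.64), -0.18 for CCME (-0.62 to 0.27), -0.18 for CCMH (-0.49 to 0.13) and -0.11 for GLDH (-0.34 to 0.12) in WT. In otp90 they were -0.051 (-0.41 to 0.31), -0.082 (-0.37 to 0.20), -0.36 (-0.82 to 0.11) and -0.00026 (-0.30 to 0.30). CCMH lay below Total without overlap in WT, as did 27.7% of all genes tested, and overlapped in otp90. CCMA, CCME and GLDH overlapped in both genotypes. With library size alone CCMA (0.65) and GLDH (0.38) were called higher in WT, and CCME (0.37) and GLDH (0.45) in otp90. The counts of CCMA, CCME and CCMH were the lowest of the set, and in WT the intervals of CCME and CCMH reach the value of AT3G27240 while that of CCMA does not.

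The rest of the electron transfer pathway was also lower in Mito relative to the bulk of genes in WT, with 8 of 10 tested complex III genes and 9 of 10 tested complex IV genes called lower and none higher. Their medians were -0.78 and -0.69, and with library size alone 2 of 10 in each list were lower and 1 complex III gene was higher. MPPbeta, the most abundant complex III gene of the list, was not called (-0.14), MPPalpha-1 was lower by -0.48, and of complex IV, COX5c-3 and COX6a were lower by -1.76 and -0.67. Of the complex IV assembly genes 4 of 10 were lower, COX10 (-0.40) among them but not COX11 (-0.25). Of the haem synthesis genes 12 of 14 were lower, HEMA1 and HEME2 by -0.83 and -0.74. Of the ascorbate genes 4 of 8 were lower and 1 higher (VTC5, which like VTC2 makes L-galactose 1-phosphate, by 0.46), and VTC2 (-0.31) was not called while GME (-0.26) was. All 4 plastid maturation genes were lower, ccsA by -1.98 and CCS1 by -0.76. The 5 ccm genes and cob were all higher, by a median of 1.54. In otp90 the counts lower were 8 of 10 for complex III, 9 of 10 for complex IV, 5 of 10 for complex IV assembly, 6 of 14 for haem synthesis (1 higher, FC1, a ferrochelatase gene, by 0.59), 4 of 8 for ascorbate (1 higher, VTC5, by 0.52) and 4 of 4 for plastid maturation, with the 5 ccm genes and cob higher by a median of 1.84. These directions too are relative to the bulk of genes: with library size alone in WT, 1 of 10 complex IV assembly genes was lower, 3 haem synthesis genes were lower and 2 higher, no ascorbate gene was lower and 2 were higher, 3 of 4 plastid maturation genes were lower, and the ccm genes and cob stayed higher with a median of 2.02. In otp90 that scaling turned haem synthesis to 5 genes higher and 0 lower.

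The share of each gene in its pair needs no scaling between libraries. Of the cytochrome c counts, CYTC-2 held 27.9, 26.3 and 26.8% in the Mito libraries of WT and 25.0, 29.4 and 26.7% in those of otp90. In Total it held 33.2, 30.6 and 34.5% in WT and 36.6, 39.9 and 36.7% in otp90. Every Mito library was below every Total library, by 5.73 percentage points in WT and 10.7 in otp90. Each exact permutation test, two-sided, gave p = 0.1, the smallest that 3 against 3 libraries allow, and 0.171 after adjustment over the 12 share tests, so no share test could pass 0.05. The AT5G40810 share of the cytochrome c1 counts was lower in Mito by 1.93 points in WT without overlap (exact p = 0.1), and by 1.01 points in otp90 with overlap (exact p = 0.6). The AT5G13440 share of the Rieske counts was lower in Mito by 2.36 points in WT with overlap (exact p = 0.2), and by 4.90 points in otp90 without overlap (exact p = 0.1). For CYTC-2, single-library 95% intervals (exact Clopper-Pearson, counting error only) were 22.1 to 28.0% for the lowest library, Mito otp90 1, and 37.7 to 42.2% for the highest, Total otp90 2.

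Between genotypes the CYTC-2 share in Mito was 27.0 ± 0.820% (SD, n = 3) for WT and 27.0 ± 2.22% for otp90. The Total values were 32.8 ± 2.02% for WT and 37.8 ± 1.90% for otp90. In Total it was 4.97 points higher in otp90 without overlap (exact permutation p = 0.1, adjusted 0.171), and 3.88 points higher without the second WT library, in which CYTC-1 was high. In Mito the difference was -0.037 points, with overlap (exact p = 1). Whether the genotype differences of the share differ between the preparations was not tested. For cytochrome c1, AT5G40810 held 55.1 ± 1.02% in Total WT and 53.8 ± 0.633% in Total otp90, lower by 1.35 points without overlap (exact p = 0.1). In Mito it held 53.2 ± 0.625% and 52.8 ± 1.68%, with overlap. AT5G13440 held 58.6 ± 1.19% of the Rieske counts in Total WT and 60.5 ± 1.11% in Total otp90, without overlap (exact p = 0.1), and 56.3 ± 1.02% and 55.6 ± 0.672% in Mito, with overlap. Reads counted at both Rieske genes enter both sides of their share.

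**Figure D4:**
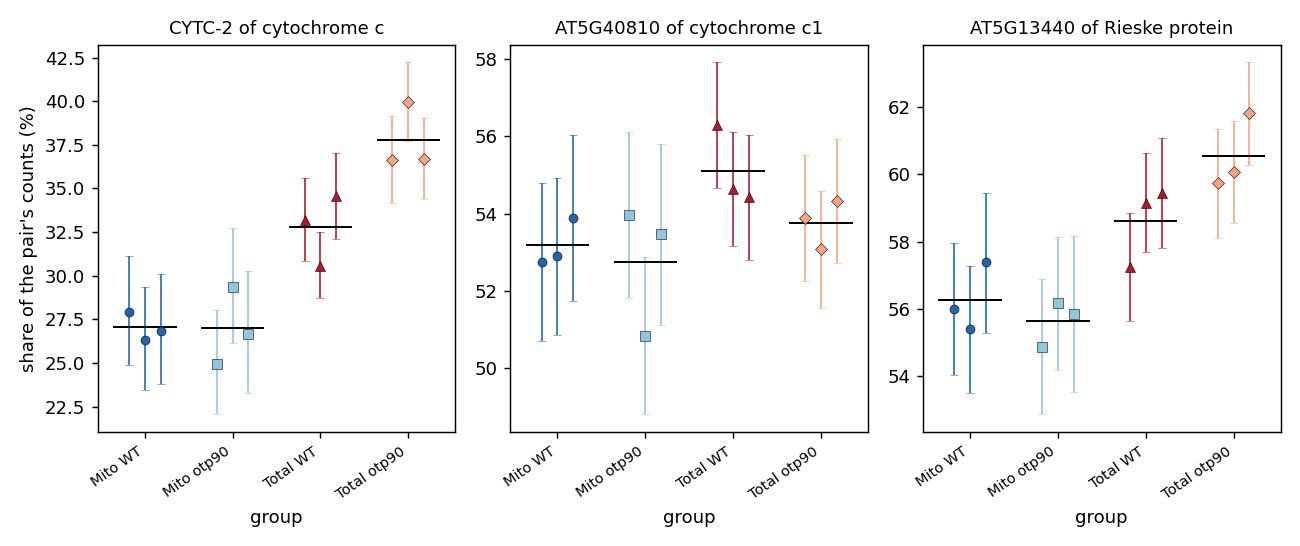
Share of 1 gene in the counts of its pair in each library: CYTC-2 of CYTC-1 and CYTC-2 (left), AT5G40810 of both cytochrome c1 genes (middle), AT5G13440 of both Rieske genes (right). Points are libraries, whiskers are exact 95% binomial intervals, horizontal bars are group means, and the vertical axes do not start at 0. The CYTC-2 share is lower in all 6 Mito libraries than in all 6 Total libraries.

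The promoters of the CYTC genes are shown because the pair differed most between the preparations and because plant respiratory genes often carry site II elements there. The letters searched were TGGGCC and TGGGCT on both strands, where matches on opposite strands can overlap and were counted separately, from 250 bases before to 50 bases after the annotated gene start (RefSeq, TAIR10.1, sense strand of the gene). Capitals mark the matches.
CYTC-1: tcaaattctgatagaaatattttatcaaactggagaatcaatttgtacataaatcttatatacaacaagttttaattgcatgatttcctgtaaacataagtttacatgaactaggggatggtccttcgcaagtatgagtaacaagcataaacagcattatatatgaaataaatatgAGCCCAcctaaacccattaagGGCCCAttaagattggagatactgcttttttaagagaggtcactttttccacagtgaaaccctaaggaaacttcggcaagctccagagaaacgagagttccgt
CYTC-2: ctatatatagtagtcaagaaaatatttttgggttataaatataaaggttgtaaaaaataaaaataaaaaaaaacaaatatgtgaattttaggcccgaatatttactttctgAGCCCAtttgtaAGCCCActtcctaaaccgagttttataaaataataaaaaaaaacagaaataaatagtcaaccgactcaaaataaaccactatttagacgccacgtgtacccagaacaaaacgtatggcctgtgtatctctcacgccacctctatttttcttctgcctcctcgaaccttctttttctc
These windows are chr1:8079037-8079336 and chr4:6276698-6276997, both on the plus strand. Each holds 2 matches, on the reverse strand. In all, 7 of the 10 members had at least 1 match and 5 had 2 or more, against 21.7% and 13.7% of 27443 nuclear protein-coding genes. CCMA, CCME and AT5G13430 had none in this window. A match is a description of letters, and no binding was measured.

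Among the 16815 other genes that passed the filter over the 12 libraries, those whose log2 CPM was most like the members' mean standardised profile were AT5G22280 (Pearson's r = 0.980), WIH1 (AT5G67600, r = 0.971) and AT4G30450 (r = 0.971). Within the 6 Mito libraries r was 0.9001, 0.910 and 0.645 for these genes, and within the 6 Total libraries 0.944, 0.744 and 0.888. The libraries form clusters by preparation and share depth and scaling between genes, so these values are descriptions. Of the members, AT5G13440 was the most like their own mean (0.971) and CCMA (0.0754) and GLDH (0.227) the least.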

How the data were processed

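RNA-seq reads of 12 leaf libraries (stranded, ribosome-depleted, single-end, 75 bases) were aligned by the authors with STAR without introns (alignIntronMax 1), all best hits kept. The deposited values are raw counts per gene, made by the authors with featureCounts 1.6.3 (multi-mapping reads counted, strand setting 2, exons) on Ensembl Genomes release 39 with a Col-0 mitochondrial chromosome. These counts were tested with edgeR 4.0.16 in R 4.3.3 (TMM scaling, glmQLFit, glmQLFTest; genes over 1 CPM in at least 3 libraries; Benjamini-Hochberg over all genes; threshold 0.05), each contrast on its own 6 libraries and the interaction on 12. All 10 members passed this filter in every fit. DESeq2 1.42.0, other scalings, nuclear genes only, no filter, a replicate block, 1 fit of 12 libraries and leaving out each library were alternatives. Intervals are 95% and cover the spread between libraries. The methods name no test for these counts and refer to an earlier publication for the RNA-seq analysis. The models were tested on simulated data.

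Same-numbered libraries deviated together in Mito (correlations of deviations from group means 0.44, 0.423 and 0.118, the last weak) but not in Total (0.335, -0.413 and -0.445). Other numberings were not compared, so a pairing of WT and otp90 by number was not settled. The main fits held no block, and the replicate block was run only as an alternative. Replicates differed by more than sampling noise (chi-square per degree of freedom 12.4 to 104). Paralogue shares were compared by exact permutation over libraries. Depth was 24660745 to 60464017 counts per library.

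Members and lists were chosen with earlier results of these data known. The text names all 10 members, the 2 genes of each list with the highest mean level in a fit, list genes that passed between genotypes, the 3 genes most like the members' profile, and OTP90. Names of list genes match identifiers, and the exon lengths in the deposited tables served only for levels per kilobase.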

Additional observations from a re-analysis of the deposited data

Results flagged for a closer look

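AT5G40810, for cytochrome c1, was higher in every otp90 library than in every WT library in Mito and lower in every otp90 library than in every WT library in Total. The difference between these genotype effects was 0.21 on the log2 scale (95% interval 0.0052 to 0.42), with an unadjusted p of 0.0454 and an adjusted p of 0.930 in edgeR's interaction test over 12 libraries, so it failed the correction. With scaling by library size alone its value in Mito was -0.045. Under that scaling, and with no filter, no member was at an unadjusted p under 0.05 in the interaction. The same held on leaving out Mito WT 1, Mito WT 3, Total WT 2 or Total otp90 1. It also held on leaving out Mito otp90 1, 2 or 3, while leaving out any other library kept 1 member under that level. In the main interaction fit, 854 of 16825 genes were under it. Of all genes tested, 7.56% were higher in otp90 without overlap in Mito, and 4.33% were lower without overlap in Total.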

How the results depend on the processing

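No member was called between the genotypes, or in the interaction, under any alternative run. In Total, 2 members were at an unadjusted p under 0.05 with all 12 libraries in 1 edgeR fit, beside 1261 of 16825 genes. In Mito, 1 member was under that level in edgeR without the third WT library, beside 1077 of 16441 genes. In the interaction, 2 members were under it with DESeq2, beside 768 of 16825 genes, and 0 or 1 in the edgeR fits. Over 130 alternative values of the members in Mito, 110 kept their sign and side of the threshold, and 121 of 130 in Total. In Mito all 9 sign changes outside the left-out libraries came from library size alone: CCME -0.060, CCMH -0.075, CYTC-1 -0.066, CYTC-2 -0.070, AT3G27240 -0.015, AT5G40810 -0.045, AT5G13430 -0.048, AT5G13440 -0.083 and GLDH -0.022. In Total CYTC-2 was 0.0043 with no filter and 0.00052 with all 12 libraries in 1 fit. All genes called in Mito were 22 with RLE size factors, 19 with nuclear genes only, 95 with no filter, 105 with DESeq2, 221 with the replicate block, 1 with 12 libraries in 1 fit, and 2 to 64 with a library left out. In Total they were 18 with DESeq2 and 3 with 12 libraries in 1 fit, and in the interaction 6 with DESeq2. The cause of these moves was not tested.

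Between preparations, library size alone gave 3 members called in WT, with CCME 0.28, CCMH 0.30, AT3G27240 0.026, AT5G13430 0.19, AT5G13440 0.049 and GLDH 0.38. In otp90 it gave CCMA 0.40, CCME 0.37, CCMH 0.097, CYTC-1 0.13, AT3G27240 0.18, AT5G40810 0.12, AT5G13430 0.40, AT5G13440 0.11 and GLDH 0.45, and the replicate block gave GLDH 0.0056. All genes called as higher were then 88.8% in WT and 87.9% in otp90, against 52.2% and 52.6% with TMM. With the replicate block 5 of 10 members were called in WT and 4 of 10 in otp90, beside 6357 of 16436 and 7315 of 16337 genes tested. The block changed no other member call beyond AT3G27240 in otp90 (adjusted p = 0.047 in edgeR) and those given above. Paired by number, the share tests could not go below p = 0.25 (sign flips, exact, replicate block), and the CYTC-2 share differed by -5.73 points in WT.

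With a library left out, members called ranged from 3 to 6 of 10 in WT and 1 to 5 of 10 in otp90. All genes called ranged from 4322 of 15737 tested to 10242 of 16300 in WT. In otp90 they ranged from 5147 of 15564 to 8552 of 16198. Values that changed sign ranged as follows. In Mito, otp90 against WT, CCME ranged from -0.095 to 0.12, CCMH from -0.16 to 0.14, CYTC-1 from -0.045 to 0.10, AT5G13430 from -0.014 to 0.095 and AT5G13440 from -0.018 to 0.041. In Total, CCME ranged from -0.15 to 0.12, CYTC-2 from -0.090 to 0.12 and GLDH from -0.15 to 0.042. For Mito against Total in otp90, CCMA ranged from -0.12 to 0.030, AT5G13430 from -0.13 to 0.018 and GLDH from -0.15 to 0.082. In the interaction, CCME ranged from -0.081 to 0.19 and CYTC-2 from -0.086 to 0.10. The genotype difference in Mito of the CYTC-2 share ranged from -1.22 to 0.98 points and that of the AT5G40810 share from -1.03 to 0.54.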
